A study of Mus musculus with 12 samples.

Results

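The genes described here are 39 mouse genes of the ATF4 amino acid response and the unfolded protein response, chosen by gene symbol. The amino acid set holds 27 genes and the endoplasmic reticulum (ER) chaperone set holds 12. All 39 symbols were found among the 23282 symbols of the count tables, and all 39 passed the filter on low counts that left 12425 genes for testing. RNA was measured in C22 cells, a cloned mouse lung club (clara) cell line from H-2Kb-tsA58 transgenic mice, which divides at a permissive temperature with interferon-γ and differentiates at a higher temperature without it. Every group shared this transgene, the differentiation and a serum starvation of 2 h. The 4 groups were negative control cells (NC), negative control cells given TGF-β1 at 20 ng/ml for 24 h (NC_TGF), cells with Pdcd5 silenced (siPdcd5), and silenced cells given the same TGF-β1 (siPdcd5_TGF), with 3 libraries each. Pdcd5 encodes programmed cell death 5, and the design asked what TGF-β1, a fibrogenic cytokine, and the loss of Pdcd5 each did to gene expression in these cells.

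ATF4 is a transcription factor whose translation rises when kinases that sense amino acid shortage, ER stress, heme shortage or viral RNA phosphorylate the translation factor eIF2α. With CEBP family partners it binds CEBP-ATF response elements and turns on genes for amino acid synthesis, amino acid uptake and tRNA charging, together with stress response genes such as Trib3, Chac1 and Ddit3. Misfolded protein in the ER also acts through ATF6 and the IRE1-XBP1 branch, which turn on ER chaperones through ER stress response elements. In fibroblasts, TGF-β is known to raise serine and glycine synthesis through ATF4, and collagen is rich in glycine and proline.

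The promoters are shown because these 2 families of elements are those known to act in the amino acid response and the unfolded protein response. RefSeq promoter windows on GRCm38.p6, each 300 bases from 250 before to 50 after a transcription start, were found for 35 of the 39 genes, and not for Slc7a5, Nars, Wars and Manf. The CEBP-ATF response element was searched as TGATGNAA on both strands. It was present in 9 of the 24 amino acid genes with a window, which were Trib3, Asns, Chac1, Pycr1, Slc7a11, Aars, Gars, Vldlr and Nupr1, and in 1 of 11 chaperone genes, Herpud1. Of all 32851 windows of that length, 3.97% held it. Here and below the set is counted by gene and the background by window, so the shares are not like for like. Of the 35 genes, 3 had 2 windows, and the Vldlr match lay in window 2 of that gene. The ER stress response element, CCAAT and CCACG with 9 bases between them, was present in 6 of 11 chaperone genes (Hspa5, Hsp90b1, Dnajc3, Calr, Pdia6 and Creld2), in 0 of 24 amino acid genes and in 0.119% of all windows. Element II, ATTGG and CCACG with 1 base between them, was present in Herpud1 among the 39 genes and in 0.0365% of all windows. No matches overlapped one another in the 39 genes, although both ER elements share the letters CCACG. A match describes the letters and is not evidence of binding. Below are 6 promoters that hold a match, each of a gene called in at least 1 comparison. That choice pairs a match with a response, so the pairing is not a result. Each promoter is read 5′ to 3′ on the strand of the gene from 250 bases before to 30 after the start, with the matches in capitals.
Nupr1 (chr7:126625441-126625720, minus strand): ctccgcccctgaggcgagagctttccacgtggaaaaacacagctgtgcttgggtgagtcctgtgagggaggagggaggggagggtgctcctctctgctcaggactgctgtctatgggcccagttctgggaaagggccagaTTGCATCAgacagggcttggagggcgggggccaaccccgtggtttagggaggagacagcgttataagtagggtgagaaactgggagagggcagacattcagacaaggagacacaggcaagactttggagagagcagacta
Slc7a11 (chr3:50443584-50443863, minus strand): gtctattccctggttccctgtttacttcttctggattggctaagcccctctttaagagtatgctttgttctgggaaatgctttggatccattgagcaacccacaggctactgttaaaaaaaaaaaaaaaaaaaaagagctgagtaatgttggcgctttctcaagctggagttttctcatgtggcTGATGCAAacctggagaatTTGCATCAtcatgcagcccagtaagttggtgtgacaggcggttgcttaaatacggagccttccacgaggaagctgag
Trib3 (chr2:152344031-152344310, minus strand): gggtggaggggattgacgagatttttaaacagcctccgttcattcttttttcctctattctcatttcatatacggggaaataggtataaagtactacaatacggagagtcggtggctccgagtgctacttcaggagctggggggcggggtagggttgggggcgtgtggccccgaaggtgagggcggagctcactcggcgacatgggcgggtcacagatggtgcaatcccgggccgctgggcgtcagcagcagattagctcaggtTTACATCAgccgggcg
Chac1 (chr2:119350992-119351271, plus strand): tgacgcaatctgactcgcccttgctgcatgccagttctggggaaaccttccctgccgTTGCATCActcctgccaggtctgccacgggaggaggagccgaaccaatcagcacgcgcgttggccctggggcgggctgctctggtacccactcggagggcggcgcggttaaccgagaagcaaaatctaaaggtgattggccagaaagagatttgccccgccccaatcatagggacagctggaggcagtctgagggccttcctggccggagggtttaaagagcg
Hspa5 (chr2:34771840-34772119, plus strand): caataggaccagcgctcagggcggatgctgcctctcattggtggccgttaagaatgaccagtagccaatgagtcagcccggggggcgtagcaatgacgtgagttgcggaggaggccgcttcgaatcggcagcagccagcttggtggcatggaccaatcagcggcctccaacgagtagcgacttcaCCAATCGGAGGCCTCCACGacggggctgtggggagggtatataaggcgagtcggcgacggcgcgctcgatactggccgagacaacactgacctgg
Herpud1 (chr8:94386179-94386458, plus strand): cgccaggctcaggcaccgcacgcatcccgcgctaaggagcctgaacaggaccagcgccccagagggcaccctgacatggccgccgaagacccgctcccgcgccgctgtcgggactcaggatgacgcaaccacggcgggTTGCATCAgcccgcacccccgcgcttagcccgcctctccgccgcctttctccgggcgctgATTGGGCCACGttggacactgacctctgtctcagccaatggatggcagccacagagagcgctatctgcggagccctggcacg

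Nupr1, Trib3 and Chac1 each held 1 CEBP-ATF match, all on the opposite strand to the gene. Slc7a11 held 2 matches in opposite orientations, at bases -66 to -59 and -47 to -40 from the start. Hspa5 held the ER stress response element close to its start, at bases -65 to -47. Herpud1, which codes for a membrane protein of ER-associated degradation, was the member with both kinds of element, a CEBP-ATF match at bases -112 to -105 and element II at bases -52 to -42.

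**Figure D1:**
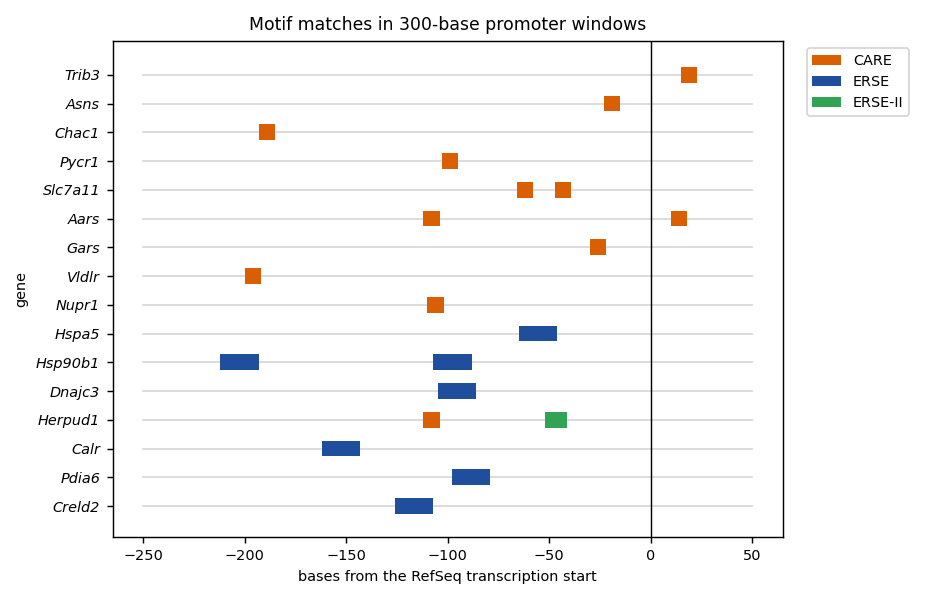
Matches to the 3 elements in the RefSeq promoter windows of the 16 genes with a match, by distance in bases from the transcription start (x axis), with 1 line per gene and 1 colour per element. CEBP-ATF matches (CARE) sit in amino acid genes and Herpud1, and ER stress response elements (ERSE, ERSE-II) in chaperone genes.

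The libraries held between 12809857 and 17714828 counts each. Pdcd5 stood at 65.1 to 73.5 CPM (counts scaled by library size and TMM factor) in the 6 NC and NC_TGF libraries and at 20.0 to 26.3 in the 6 silenced ones, a log2 difference of -1.69 (SE 0.10, adjusted p = 1.1e-06) without and -1.49 (SE 0.10, adjusted p = 5.5e-06) with TGF-β1. Most markers of the club cell label were nearly absent. Scgb1a1, the secretoglobin that defines club cells, had at most 1 count in any library, and 4 of 10 club markers had 0 counts throughout. Only 2 of the 10 exceeded 1 CPM in every library, Aldh1a1 at 155 to 556 CPM and Foxa2 at 49.1 to 213 CPM. The summed club markers, nearly all from these 2 genes, lay between 716 and 739 CPM in NC, 283 and 295 in NC_TGF, 491 and 523 in siPdcd5 and 222 and 242 in siPdcd5_TGF. The summed fibroblast markers, 4 of 6 of them above 1 CPM in every library, lay between 2740 and 2900, 5930 and 6590, 1850 and 2320, and 4530 and 4710 CPM in the same order. Nearly all of that sum was Col1a1, a collagen gene known to respond to TGF-β, with group means of 2720, 6120, 1960 and 4560 CPM, while Dcn stood at 95.7, 22.6, 144 and 41.5 CPM. The summed basal cell markers lay between 10.4 and 12.4, 169 and 210, 3.32 and 4.96, and 75.2 and 88.5 CPM, nearly all from Krt14 (means 10.8, 187, 3.51 and 82.4), with Trp63, which defines basal cells, at 0.223 CPM or less in every library. The summed epithelial markers lay between 674 and 697, 1240 and 1680, 547 and 699, and 1580 and 1650 CPM, nearly all from Krt8 and Krt18, with Epcam at 0.0742 CPM or less. These sums differed between untreated and TGF-β1-treated libraries, as did the genes below, and their part in the results was not tested. Leukocyte and endothelial markers summed to at most 12 and 2.47 CPM. In bulk RNA, a change in the share of a cell type and a change in RNA per cell cannot be told apart. NC_TGF replicate 2 stood furthest apart, and siPdcd5 replicate 1 came next. In NC_TGF replicate 2, 37.6% of all tested genes lay outside the range of its group's other libraries by over 0.3 on the log2 scale. This share was 28.3% in siPdcd5 replicate 1 and 9.10% to 16.4% in the other 10. Among the 39 genes, leaving out NC_TGF replicate 2 changed the calls that are named with each comparison below.

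TGF-β1 raised most of the amino acid set and part of the chaperone set. In NC cells 22 of the 27 amino acid genes were higher with TGF-β1 and 0 were lower (median log2 fold change 0.90), and 3 of the 12 chaperone genes were higher and 0 lower (median 0.31). Over all 12425 genes, 8.57% were called higher and 6.77% were called lower, a call being an adjusted p under 0.05, with a median of 0.00. In siPdcd5 cells 19 of 27 amino acid genes rose (median 0.81) and 7 of 12 chaperone genes rose (median 0.41), with 0 lower among either kind, against 8.50% of all genes called higher and 7.61% lower. All 19 amino acid genes called in siPdcd5 cells were among the 22 called in NC cells, and the additional 3 were Ddit3, Aldh18a1 and Slc3a2. All 3 chaperone genes called in NC cells, Hspa5, Dnajc3 and Herpud1, were also among the 7 called in siPdcd5 cells. Of all genes, 1316 were called in both, 69.0% of those called in NC cells and 65.7% of those called in siPdcd5 cells. Without NC_TGF replicate 2, 22 amino acid genes and 5 chaperone genes were called in NC cells.

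The mean log2 CPM over a gene set gives the same picture per library. For the amino acid set it was 5.77, 5.82 and 5.84 in NC and 6.75, 6.74 and 6.78 in NC_TGF. In the silenced cells it was 5.50, 5.51 and 5.55, and with TGF-β1 6.44, 6.40 and 6.37. The 4 groups did not overlap, with siPdcd5 the lowest, then NC, siPdcd5_TGF and NC_TGF. For the chaperone set the means were 7.35, 7.33 and 7.37 in NC, 7.57, 7.76 and 7.70 in NC_TGF, 7.07, 7.08 and 7.02 in siPdcd5 and 7.45, 7.35 and 7.44 in siPdcd5_TGF. Here siPdcd5_TGF overlapped NC, while NC_TGF lay above and siPdcd5 below both.

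**Figure D2:**
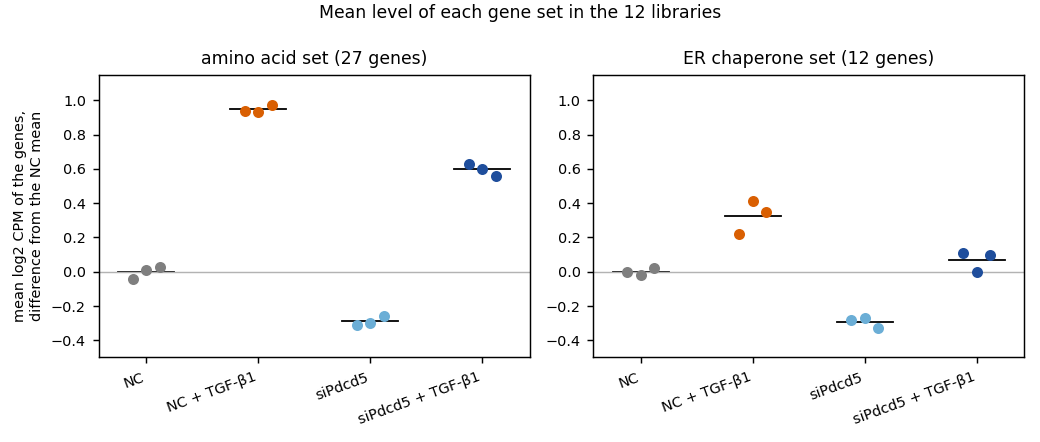
Mean log2 CPM of the 27 amino acid genes (left) and 12 chaperone genes (right) in each of the 12 libraries, as the difference from the NC mean (y axis, log2 scale), by group (x axis), with points for libraries and lines for group means. In the amino acid set the 3 NC_TGF libraries sit 0.93 to 0.97 above NC and the 3 siPdcd5_TGF libraries 0.56 to 0.63 above.

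**Figure D3:**
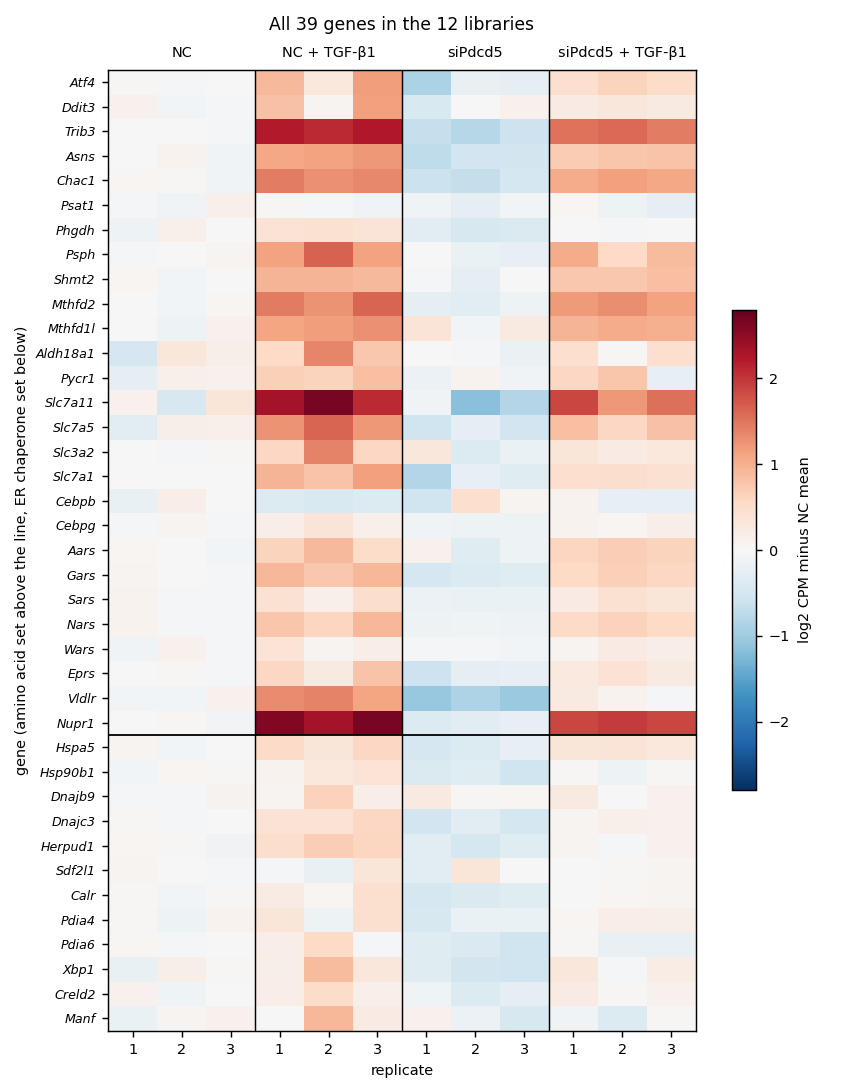
Log2 CPM of all 39 genes (rows) in the 12 libraries (columns, by group and replicate) minus the NC mean of the gene, in red above and in blue below. The amino acid genes above the black line are red in most rows of both TGF-β1 groups, Nupr1, Slc7a11 and Trib3 most strongly, and NC_TGF replicate 2 departs from its group in several rows, Slc3a2 and Manf among them.

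Atf4 transcripts themselves were higher with TGF-β1. Atf4 stood at 768, 737 and 751 CPM in NC and at 1410, 925 and 1700 in NC_TGF, a 1.79-fold difference (log2 0.84, SE 0.19, adjusted p = 0.00696). In the silenced cells it went from 408, 648 and 619 to 1040, 1160 and 1070 CPM (log2 0.96, SE 0.19, adjusted p = 0.00274). Treated and untreated libraries did not overlap in either state, although NC_TGF replicate 2 was well below the other treated NC libraries. The share of all genes without overlap was not computed, so here and below a lack of overlap only describes the libraries of the gene. Ddit3, which codes for the stress transcription factor CHOP, was at 184, 161 and 165 CPM in NC and at 297, 179 and 375 in NC_TGF. Its groups overlapped at NC_TGF replicate 2, and the difference (log2 0.74, SE 0.20, adjusted p = 0.0201) was lost without NC replicate 2 or 3, without NC_TGF replicate 1 or 3 and with only the 6 compared libraries, up to an adjusted p of 0.0899. In siPdcd5 cells Ddit3 was at 127, 167 and 184 CPM without and 198, 210 and 203 with TGF-β1, which did not pass (log2 0.35, SE 0.20, adjusted p = 0.265) but did without NC_TGF replicate 2 (adjusted p = 0.0417). The partner genes Cebpb and Cebpg were not called. Cebpg did pass with DESeq2 in NC cells (adjusted p = 0.0385) and in siPdcd5 cells (adjusted p = 0.0213). In siPdcd5 cells it also passed without NC_TGF replicate 2 (log2 0.24, adjusted p = 0.0344). Treated and untreated libraries of Cebpg did not overlap in either state. Cebpb was at 28.9, 38.1 and 33.7 CPM in NC and 25.5, 24.9 and 25.5 in NC_TGF (log2 -0.41, SE 0.20, adjusted p = 0.205), one of 2 amino acid genes with a value below 0 there, with Psat1 the other.

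Trib3, a pseudokinase that damps ATF4 and CHOP activity, was among the genes that moved most. It stood at 17.3, 17.5 and 16.9 CPM in NC and at 80.1, 73.2 and 82.2 in NC_TGF, 4.55-fold higher (log2 2.19, SE 0.10, adjusted p = 5.1e-09). In siPdcd5 cells it went from 11.0, 9.81 and 11.6 to 49.9, 51.8 and 46.6 CPM, 4.58-fold higher (log2 2.19, SE 0.10, adjusted p = 6.7e-09). No library of one treatment reached those of the other. Nupr1, a small stress-induced chromatin protein, rose the most in NC cells, from 114, 117 and 108 to 679, 566 and 707 CPM (5.77-fold, log2 2.53, SE 0.10, adjusted p = 1.5e-09). In siPdcd5 cells it went from 86.7, 92.1 and 96.6 to 411, 438 and 411 CPM (4.57-fold, log2 2.19, SE 0.10, adjusted p = 6.1e-09). Chac1, an enzyme that breaks down glutathione, rose from 25.9, 25.4 and 23.2 to 67.0, 60.2 and 63.5 CPM in NC cells (log2 1.36, SE 0.09, adjusted p = 1.9e-07). Its rise in siPdcd5 cells, from 16.2, 15.5 and 17.4 to 50.9, 54.6 and 53.0 CPM, was 3.23-fold (log2 1.69, SE 0.10, adjusted p = 3.7e-08). Trib3, Nupr1 and Chac1 did not overlap between treated and untreated libraries in either state. Vldlr, a lipoprotein receptor and known ATF4 target, rose from 8.82, 8.83 and 10.1 to 23.2, 24.4 and 20.0 CPM in NC cells (log2 1.28, SE 0.14, adjusted p = 1.3e-05). From a lower level in siPdcd5 cells, 4.35, 5.02 and 4.38 CPM, it reached 11.0, 9.87 and 8.94 CPM with TGF-β1 (log2 1.11, SE 0.15, adjusted p = 1.1e-04).

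**Figure D4:**
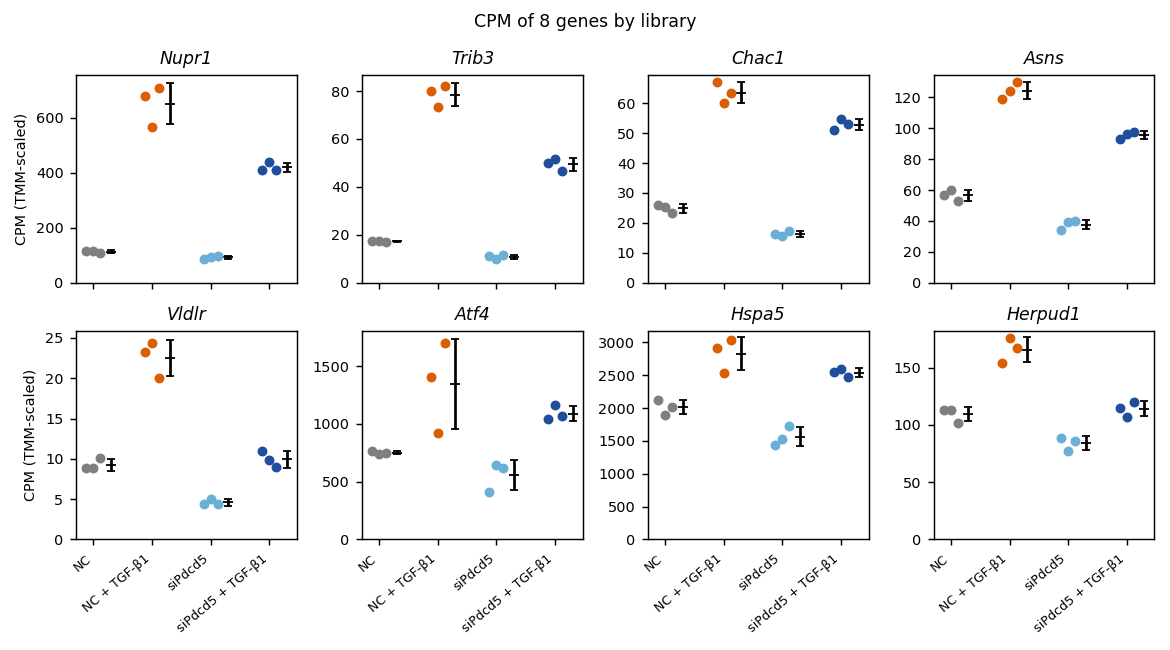
CPM (y axis, TMM-scaled, from 0) of 8 genes in the 4 groups (x axis), with points for the 3 libraries and the black mark and bars for the mean and SD. Nupr1 reaches 566 to 707 CPM in NC_TGF and 411 to 438 in siPdcd5_TGF, against 117 at most without TGF-β1, and Vldlr lies at 8.94 to 11.0 CPM in siPdcd5_TGF and 8.82 to 10.1 in NC.

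Of the 9 genes for enzymes of amino acid and one-carbon synthesis, 7 rose in NC cells, 6 of them also in siPdcd5 cells, and Psat1 and Pycr1 passed in neither. Asns, asparagine synthetase, went from 56.6, 60.0 and 53.1 to 119, 124 and 130 CPM in NC cells (log2 1.14, SE 0.09, adjusted p = 6.1e-07) and from 34.2, 39.1 and 39.7 to 93.2, 96.1 and 97.9 CPM in siPdcd5 cells (log2 1.35, SE 0.09, adjusted p = 1.6e-07). The serine pathway did not move as 1 block. Phgdh, which catalyses its first step, rose 1.31-fold in NC cells, from 78.0, 95 and 87.1 to 115, 116 and 110 CPM (log2 0.39, SE 0.09, adjusted p = 0.0062), and 1.29-fold in siPdcd5 cells. Psat1, the second enzyme, stood at 80.1, 78.1 and 93.0 CPM in NC and 85.8, 80.7 and 78.7 in NC_TGF, and its difference was -0.04 in NC cells (95% interval -0.24 to 0.17) and 0.03 in siPdcd5 cells (-0.17 to 0.24). Psph, the phosphatase of the last step, rose from 9.28, 9.64 and 10.1 to 21.3, 30.6 and 21.1 CPM in NC cells (2.51-fold, adjusted p = 6.3e-05) and from 9.52, 8.49 and 8.24 to 19.9, 14.3 and 17.9 CPM in siPdcd5 cells (1.99-fold, adjusted p = 8.4e-04). So of the serine enzymes Psph had the largest fold, and Psat1 was within its replicate spread in both states.

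The mitochondrial one-carbon genes downstream of serine all rose. Shmt2, which splits serine to glycine, went from 51.2, 46.4 and 49.4 to 95, 94.4 and 91.5 CPM in NC cells (log2 0.93, SE 0.09, adjusted p = 4.2e-06). Mthfd2, a folate dehydrogenase, went from 74.7, 70.9 and 77.8 to 205, 179 and 229 CPM (2.74-fold, adjusted p = 2.0e-07). Mthfd1l, the formyl-tetrahydrofolate synthetase, went from 56.2, 50.4 and 60.1 to 119, 124 and 134 CPM (2.26-fold, adjusted p = 3.7e-06). In siPdcd5 cells these 3 were 1.86-fold, 2.73-fold and 1.75-fold higher with TGF-β1, with adjusted p of 7.5e-06, 2.3e-07 and 1.3e-04 and libraries from 40.7 to 48.7 against 82.3 to 87.5 CPM for Shmt2, 59.5 to 66.9 against 162 to 184 CPM for Mthfd2 and 52.6 to 70.5 against 107 to 113 CPM for Mthfd1l. None of these groups overlapped. Of the proline synthesis genes, Aldh18a1 was at 8.59, 15.1 and 13.6 CPM in NC and 17.8, 31.2 and 20.5 in NC_TGF (log2 0.90, SE 0.23, adjusted p = 0.0128), a call that was lost without NC replicate 1 (adjusted p = 0.0644). In siPdcd5 cells its difference did not pass (log2 0.41, SE 0.23, adjusted p = 0.255). Pycr1 had at most 3.00 CPM in any library and was not called in either state (log2 0.75, SE 0.30, adjusted p = 0.118 in NC cells).

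All 4 amino acid transporter genes rose in NC cells. Slc7a11, the cystine transporter subunit of system xc-, was low in untreated NC cells at 2.59, 1.71 and 3.07 CPM and reached 12.6, 15.7 and 10.5 in NC_TGF (5.26-fold, log2 2.40, SE 0.29, adjusted p = 3.4e-05). In siPdcd5 cells it went from 2.21, 0.992 and 1.29 to 9.06, 5.71 and 7.26 CPM (5.01-fold, log2 2.32, SE 0.30, adjusted p = 9.0e-05). The SE was larger than that of Trib3, and the groups still did not overlap. Slc7a5, the large neutral amino acid transporter, rose from 22.3, 30.9 and 30.6 to 66.2, 85.2 and 64.1 CPM in NC cells (2.57-fold, adjusted p = 1.6e-05) and from 18.7, 22.7 and 18.9 to 49.7, 41.0 and 48.4 CPM in siPdcd5 cells (2.30-fold, adjusted p = 6.4e-05). Slc7a1, a carrier of arginine and lysine, rose from 75.1, 74.0 and 75.8 to 146, 129 and 166 CPM (1.96-fold, adjusted p = 9.7e-05) and from 42.7, 63.3 and 59.8 to 104, 105 and 101 CPM (1.87-fold, adjusted p = 2.1e-04). The treated and untreated groups of these 3 carriers did not overlap. Slc3a2, the heavy chain that Slc7a5 and Slc7a11 pair with, stood at 214, 211 and 221 CPM in NC and 324, 570 and 320 in NC_TGF (log2 0.91, SE 0.20, adjusted p = 0.00616), with replicate 2 far above the others. In siPdcd5 cells it was at 269, 165 and 188 CPM without and 271, 251 and 262 with TGF-β1, which did not pass (log2 0.34, SE 0.20, adjusted p = 0.298).

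The cytosolic tRNA synthetase genes of the set rose in most cases and by less. Gars, for glycine, rose from 216, 204 and 196 to 394, 348 and 390 CPM in NC cells (1.84-fold, adjusted p = 4.1e-06) and from 147, 156 and 163 to 302, 327 and 306 CPM in siPdcd5 cells (2.00-fold, adjusted p = 1.3e-06). Nars, for asparagine, went from 276, 252 and 252 to 446, 397 and 490 CPM in NC cells (1.71-fold, adjusted p = 2.3e-05). Aars, for alanine, went from 184, 179 and 168 to 273, 331 and 254 CPM (1.62-fold, adjusted p = 8.7e-04). These 3 did not overlap between treated and untreated NC libraries. Eprs, for glutamate and proline, went from 387, 397 and 379 to 584, 462 and 670 CPM (1.48-fold, adjusted p = 0.00625), and Sars, for serine, from 542, 495 and 492 to 684, 566 and 716 CPM (1.29-fold, adjusted p = 0.0184). The Sars call in NC cells was lost without NC replicate 2 or 3, without NC_TGF replicate 1 or 3 and with only the 6 compared libraries, up to an adjusted p of 0.0867. In siPdcd5 cells all 5 rose, between 1.42-fold for Sars and 2.00-fold for Gars. Wars, for tryptophan, was at 22.7 to 26.5 CPM in NC and 25.5 to 31.5 in NC_TGF and was not called in either state (log2 0.21, SE 0.11, adjusted p = 0.229 in NC cells).

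The chaperone genes that passed rose by at most 1.63-fold. Hspa5, the ER chaperone BiP, stood at 2120, 1900 and 2020 CPM in NC and 2920, 2540 and 3030 in NC_TGF, 1.41-fold higher (log2 0.49, SE 0.10, adjusted p = 0.00245). In siPdcd5 cells it went from 1440, 1530 and 1720 to 2550, 2600 and 2470 CPM, 1.63-fold higher (log2 0.70, SE 0.10, adjusted p = 1.4e-04). Dnajc3, a co-chaperone that also inhibits eIF2α kinases, went from 160, 154 and 157 to 210, 208 and 234 CPM in NC cells (1.38-fold, adjusted p = 0.00145) and from 109, 128 and 112 to 166, 175 and 169 CPM in siPdcd5 cells (1.46-fold, adjusted p = 4.3e-04). Both genes were separated between treated and untreated libraries in each state. Herpud1 rose from 113, 113 and 102 to 154, 176 and 167 CPM in NC cells (1.51-fold, adjusted p = 3.0e-04) and from 88.6, 77.6 and 86.2 to 115, 107 and 120 CPM in siPdcd5 cells (1.35-fold, adjusted p = 0.00371).

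A further 4 chaperone genes passed in siPdcd5 cells but not in NC cells, and the difference between the states was tested only by the interaction term given further on, which passed for 0 of them. Hsp90b1, the ER chaperone GRP94, was at 671, 698 and 600 CPM in siPdcd5 and 901, 798 and 908 in siPdcd5_TGF (log2 0.40, SE 0.10, adjusted p = 0.0104), and at 835, 911 and 905 against 948, 1080 and 1160 CPM in NC cells (log2 0.26, SE 0.10, adjusted p = 0.0887). Calr, the lectin chaperone calreticulin, went from 1250, 1330 and 1380 to 1780, 1840 and 1870 CPM in siPdcd5 cells (log2 0.47, SE 0.10, adjusted p = 0.00452), and was at 1820, 1670 and 1810 against 2060, 1830 and 2420 CPM in NC cells (log2 0.25, SE 0.10, adjusted p = 0.112). Xbp1, the transcription factor of the IRE1 branch, went from 41.8, 37.3 and 36.2 to 65.8, 50.7 and 61.2 CPM in siPdcd5 cells (log2 0.63, SE 0.17, adjusted p = 0.0197). In NC cells Xbp1 was at 45.9, 59.7 and 54.4 against 59.4, 97.5 and 66.4 CPM, where the groups overlapped (log2 0.48, SE 0.17, adjusted p = 0.0701). Counts per gene cannot separate the spliced from the unspliced Xbp1 transcript. Creld2, a folding factor, passed narrowly in siPdcd5 cells, from 30, 25.3 and 27 to 38.3, 33.6 and 35.4 CPM (log2 0.38, SE 0.12, adjusted p = 0.0472), and passed in 7 of 19 alternatives. The Hsp90b1 and Xbp1 calls were each lost without siPdcd5 replicate 3 and without siPdcd5_TGF replicate 1 or 3, Hsp90b1 also with limma-trend after quantile normalization and Xbp1 also without siPdcd5 replicate 2, up to adjusted p of 0.16 and 0.092. The other 5 genes, Dnajb9, Sdf2l1, Pdia4, Pdia6 and Manf, passed in neither state, with log2 differences of 0.05 to 0.44 in NC cells and -0.01 to 0.41 in siPdcd5 cells. Without NC_TGF replicate 2 the NC comparison added Calr and Pdia4, at adjusted p of 0.0127 and 0.0131, and the siPdcd5 comparison added Pdia4 and Pdia6, at 0.00372 and 0.0222. Pdia4 in siPdcd5 cells, at an adjusted p of 0.0504 with all libraries, passed in 5 of 19 alternatives. The chaperone count in siPdcd5 cells fell to 4 without siPdcd5 replicate 3, siPdcd5_TGF replicate 1 or siPdcd5_TGF replicate 3.

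**Figure D5:**
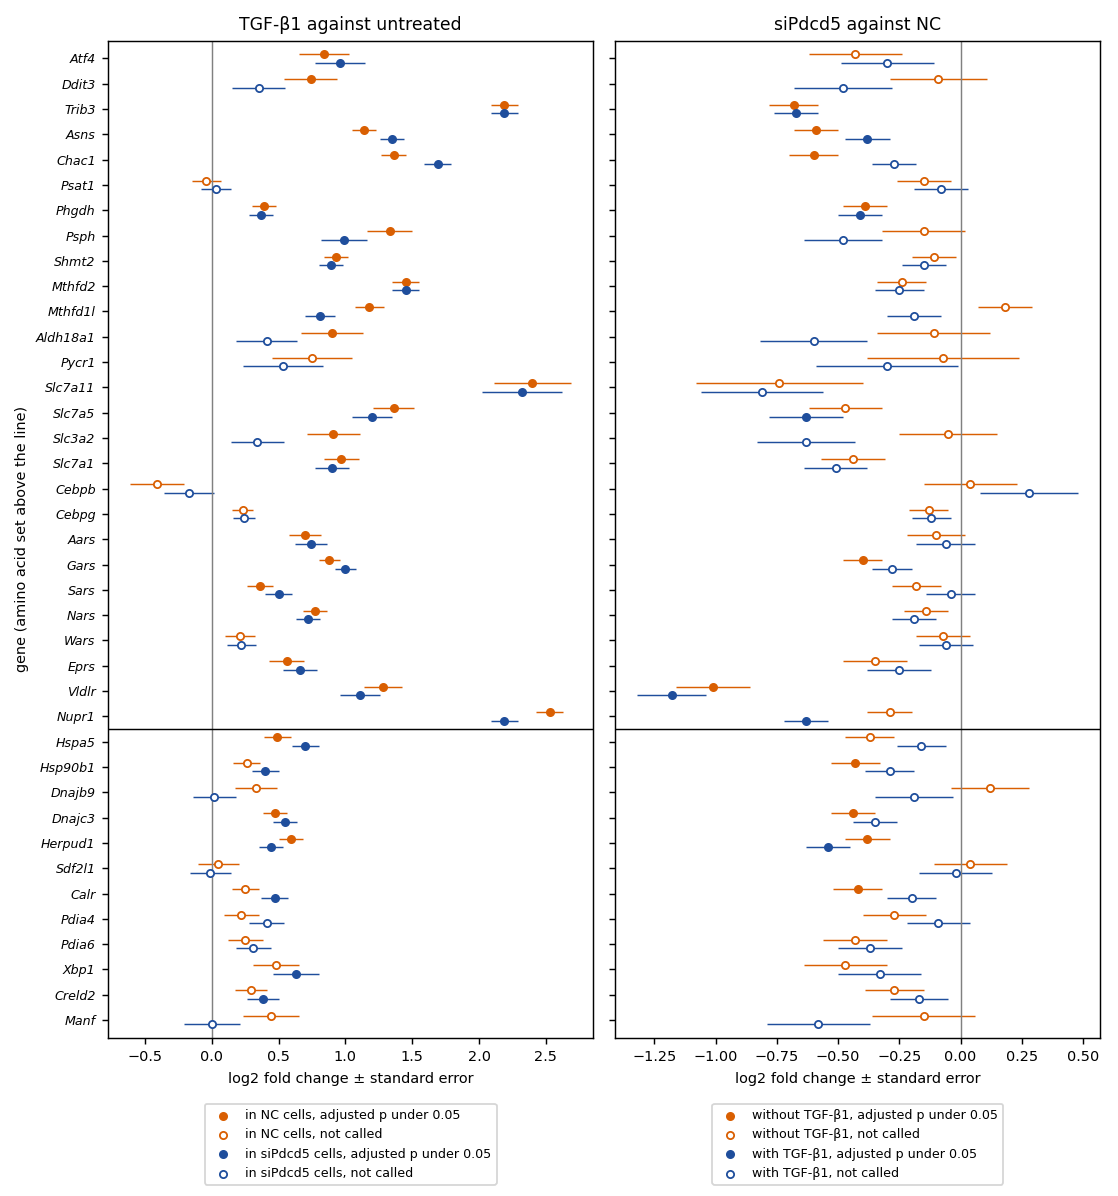
Log2 fold change (x axis) with its standard error for each of the 39 genes (y axis), for TGF-β1 against untreated cells (left, NC cells in orange and siPdcd5 cells in blue) and for siPdcd5 against NC (right, without TGF-β1 in orange and with it in blue), where filled points passed an adjusted p under 0.05. On the left nearly all points lie above 0, up to 2.53 for Nupr1 in NC cells. On the right most lie below 0, down to -1.18 for Vldlr with TGF-β1, and fewer are filled.

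Silencing Pdcd5 lowered a smaller number of the genes and raised 0 of them. Without TGF-β1, 6 of 27 amino acid genes (Trib3, Asns, Chac1, Phgdh, Gars and Vldlr) and 4 of 12 chaperone genes (Hsp90b1, Dnajc3, Herpud1 and Calr) were lower, against 2.54% of all genes called lower and 0.901% called higher. With TGF-β1, 6 amino acid genes (Trib3, Asns, Phgdh, Slc7a5, Vldlr and Nupr1) and 1 chaperone gene (Herpud1) were lower, against 1.22% of all genes called lower and 0.330% higher. The medians were -0.18 and -0.37 for the amino acid and chaperone genes without TGF-β1 and -0.30 and -0.25 with it, against 0.02 and -0.02 for all genes. The sign was below 0 for 25 and 26 of the 27 amino acid genes without and with TGF-β1, and for 10 and 12 of the 12 chaperone genes, against 46.2% and 53.6% of all genes. Trib3, Asns, Phgdh and Vldlr were called in both states, 66.7% of the 6 amino acid genes called in each. Of all genes, 122 were called in both, 28.6% of those called without TGF-β1 and 63.5% of those called with it. Both silencing comparisons share libraries with the TGF-β1 comparisons above, so the directions are not independent. The shared groups are NC and siPdcd5 for silencing without TGF-β1, and NC_TGF and siPdcd5_TGF for silencing with it.

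Vldlr was lowered the most. Its 8.82, 8.83 and 10.1 CPM in NC stood against 4.35, 5.02 and 4.38 in siPdcd5 (log2 -1.01, SE 0.15, adjusted p = 0.00199), and its 23.2, 24.4 and 20.0 CPM in NC_TGF against 11.0, 9.87 and 8.94 in siPdcd5_TGF (log2 -1.18, SE 0.14, adjusted p = 5.7e-04). The silenced libraries lay below all control libraries in each state. Trib3 fell by 0.68 on the log2 scale without TGF-β1 (SE 0.10, adjusted p = 0.00224), from 16.9–17.5 CPM in NC to 9.81–11.6 in siPdcd5. With TGF-β1 it fell by 0.67 (SE 0.09, adjusted p = 0.00183), from 73.2–82.2 to 46.6–51.8 CPM. Vldlr and Trib3 passed in both states under every one of the 19 alternatives.

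Asns fell by 0.59 without TGF-β1 (SE 0.09, adjusted p = 0.00224), from 53.1–60.0 to 34.2–39.7 CPM, and by 0.38 with it (SE 0.09, adjusted p = 0.0478), from 119–130 to 93.2–97.9 CPM. The second call passed in 4 of 19 alternatives. Chac1 fell by 0.60 without TGF-β1 (SE 0.10, adjusted p = 0.00294), from 23.2–25.9 to 15.5–17.4 CPM, and was not called with it (log2 -0.27, SE 0.09, adjusted p = 0.189), although its 60.2 to 67.0 CPM in NC_TGF did not overlap the 50.9 to 54.6 in siPdcd5_TGF. Nupr1 fell by 0.63 with TGF-β1 (SE 0.09, adjusted p = 0.00252), from 566–707 to 411–438 CPM, and was not called without it (log2 -0.29, SE 0.09, adjusted p = 0.119). The first call was lost with only the 6 compared libraries (adjusted p = 0.0547), and the second comparison passed with DESeq2 and without NC_TGF replicate 2 (adjusted p = 0.0342). Phgdh fell by 0.39 and 0.41 without and with TGF-β1 (SE 0.09 in both, adjusted p = 0.0248 and 0.0318), from 78.0–95 to 63.5–69.2 CPM and from 110–116 to 84.2–86.7 CPM. These calls passed in 13 and 9 of 19 alternatives, with adjusted p up to 0.14 and 0.153, and both were lost under the replicate block and with only the 6 compared libraries. Slc7a5 was called with TGF-β1, at 66.2, 85.2 and 64.1 CPM in NC_TGF and 49.7, 41.0 and 48.4 in siPdcd5_TGF (log2 -0.63, SE 0.15, adjusted p = 0.0492), and not without it (log2 -0.47, SE 0.15, adjusted p = 0.129). Without NC_TGF replicate 2 this was the other way round, with adjusted p of 0.0702 and 0.048, and the call with TGF-β1 passed in 4 of 19 alternatives. Slc7a11 had log2 differences of -0.74 and -0.81 without and with TGF-β1 and did not pass (SE 0.34 and 0.25, adjusted p = 0.307 and 0.147). Gars fell by 0.40 without TGF-β1 (SE 0.08, adjusted p = 0.0169), from 196–216 to 147–163 CPM. Atf4 itself was at 768, 737 and 751 CPM in NC against 408, 648 and 619 in siPdcd5, which did not overlap but did not pass (log2 -0.43, SE 0.19, adjusted p = 0.29), and with TGF-β1 the groups overlapped (log2 -0.30, SE 0.19, adjusted p = 0.531).

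Of the chaperone genes, Herpud1 was called in both states. It fell by 0.38 without TGF-β1 (SE 0.09, adjusted p = 0.0332), from 102–113 to 77.6–88.6 CPM, and by 0.54 with it (SE 0.09, adjusted p = 0.00672), from 154–176 to 107–120 CPM. The first of these calls passed in 10 of 19 alternatives. Dnajc3, Hsp90b1 and Calr fell by 0.44, 0.43 and 0.42 without TGF-β1 (adjusted p = 0.0117, 0.0264 and 0.0333). With TGF-β1 their values were -0.35, -0.29 and -0.20 (adjusted p = 0.0544, 0.185 and 0.393). Hspa5 narrowly missed without TGF-β1, with 1900 to 2120 CPM in NC and 1440 to 1720 in siPdcd5 (log2 -0.37, SE 0.10, adjusted p = 0.0523).

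Calls in the silencing comparisons depended on single libraries. The 4 chaperone calls without TGF-β1 became 0 without NC replicate 1 or siPdcd5 replicate 3, 1 without NC replicate 2 or 3, 2 without siPdcd5 replicate 2, siPdcd5_TGF replicate 1 or siPdcd5_TGF replicate 3, and 7 without NC_TGF replicate 2. The 6 amino acid calls without TGF-β1 became 10 without NC_TGF replicate 2. The 6 amino acid calls with TGF-β1 became 3 without NC replicate 3, NC_TGF replicate 1, siPdcd5 replicate 3 or any 1 of the 3 siPdcd5_TGF replicates, and the 1 chaperone call with TGF-β1 became 0 without siPdcd5_TGF replicate 2 and 2 without NC_TGF replicate 2, siPdcd5 replicate 1 or siPdcd5 replicate 2. Without NC_TGF replicate 2, silencing without TGF-β1 added Slc7a5, Slc7a1, Eprs, Nupr1, Hspa5, Pdia6 and Xbp1, at adjusted p between 0.00995 for Pdia6 and 0.048 for Slc7a5. Silencing with TGF-β1 then added Ddit3 (log2 -0.72 against -0.48 with all libraries, adjusted p = 0.00549), Slc7a1 (adjusted p = 0.0172), Gars (adjusted p = 0.0477) and Dnajc3 (adjusted p = 0.0323) and lost Slc7a5. A library of a group that is not compared acts here through the fit that all 12 libraries share.

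Whether silencing altered the response to TGF-β1 was tested by the interaction term, and 0 of the 39 genes passed, as 0 of all 12425 genes did (0% called) with edgeR. At an unadjusted p under 0.05 there were 3 of the 27 amino acid genes, 0 of the 12 chaperone genes and 638 of all genes (5.13%), and DESeq2 called 15 genes, 0 of them among the 39. The amino acid genes were Nupr1 (log2 -0.34, SE 0.13), Chac1 (log2 0.33, SE 0.13) and Mthfd1l (log2 -0.37, SE 0.16), all at an adjusted p of 0.951. For Trib3 the difference between the responses was 0.01, with a 95% interval of -0.25 to 0.27, and for Asns 0.21 (-0.04 to 0.45). For the genes called in 1 state alone, Ddit3, Slc3a2 and Slc7a5 among them, a difference between the states was therefore not shown.

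Other genes of the pathway gave the surroundings of the 39, from lists that were also drawn up with earlier results known. Of 29 further known or proposed ATF4 targets, 20 rose and 0 fell with TGF-β1 in NC cells (median 0.67) and 17 rose and 0 fell in siPdcd5 cells (median 0.59), against 8.57% and 8.50% of all genes called higher. Slc1a4, a neutral amino acid transporter, went from 35.2–44.3 CPM in NC to 78.6–113 in NC_TGF (log2 1.33, SE 0.15, adjusted p = 2.2e-05), and Slc6a9, a glycine transporter, from 31.1–39.5 to 82.0–88.9 CPM (log2 1.29, SE 0.10, adjusted p = 6.1e-07). Pck2, the mitochondrial phosphoenolpyruvate carboxykinase, went from 65.9–76.0 to 164–181 CPM (log2 1.25, SE 0.09, adjusted p = 3.4e-07). In siPdcd5 cells these 3 rose by 1.30, 1.26 and 1.17 on the log2 scale, and Atf5, a transcription factor close to ATF4, rose by 1.06 (SE 0.23, adjusted p = 0.00584). Silencing lowered 3 of the 29 without TGF-β1, against 2.54% of all genes, Pck2 (log2 -0.56, SE 0.09, adjusted p = 0.00344), Ero1l (log2 -0.47, SE 0.09, adjusted p = 0.00976) and Slc6a9 (log2 -0.43, SE 0.10, adjusted p = 0.0333). The same 3 were lower with TGF-β1, against 1.22% of all genes, by 0.63, 0.61 and 0.46 on the log2 scale (adjusted p = 0.00217, 0.00219 and 0.0343). Ero1l codes for an oxidase that drives disulfide formation in the ER.

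Genes of the stress sensors and of the feedback on eIF2α had lower medians with TGF-β1 than the further ATF4 targets above. Of 9 genes for eIF2α, its kinases and phosphatase subunits and the ER stress sensors, 3 rose with TGF-β1 in NC cells and 0 in siPdcd5 cells (median 0.26 and 0.12), against 8.57% and 8.50% of all genes. In siPdcd5 cells edgeR gave an unadjusted p under 0.05 for 1 of the 9, against 28.9% of all genes. The 3 called in NC cells were Ppp1r15a, the stress-induced phosphatase subunit GADD34 (log2 0.88, SE 0.23, adjusted p = 0.0143), Eif2ak3, the ER stress kinase PERK (log2 0.45, SE 0.13, adjusted p = 0.0283), and Ppp1r15b (log2 0.47, SE 0.13, adjusted p = 0.0261). Eif2ak4, the amino acid sensor GCN2, was at -0.22 (SE 0.13, adjusted p = 0.307). Transcript levels say nothing of the phosphorylation through which these kinases act. Of 7 other cytosolic tRNA synthetase genes 1 rose with TGF-β1 in each state (median 0.19 and 0.13), Farsb (log2 0.37, SE 0.11, adjusted p = 0.0418 in NC cells), a count close to the share over all genes. This count depends on how the lists were divided, since Cars, Iars, Lars, Mars, Tars, Vars and Yars were counted among the further ATF4 targets above. All of those but Vars (log2 0.29, adjusted p = 0.305) were called higher in NC cells, from log2 0.50 for Yars to 0.77 for Iars. In siPdcd5 cells all but Mars and Vars were called higher. Of 22 other ER folding and ER-associated degradation genes, 8 rose in NC cells and 9 in siPdcd5 cells, with 0 lower (median 0.35 and 0.29), against the same 8.57% and 8.50%. Silencing lowered 2 of those 22 without TGF-β1, against 2.54% of all genes, Sec24d (log2 -0.76, SE 0.12, adjusted p = 0.00283) and Ostc (log2 -0.36, SE 0.09, adjusted p = 0.0499). With TGF-β1 it lowered 0 of them, against 1.22% of all genes. There edgeR gave an unadjusted p under 0.05 for 7 of the 22, against 13.8% of all genes.

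Some members' counts are less certain than their replicate spread shows, because reads that align to several places entered the tables, and how strand was treated is not given in the sources used here. The last 500 bases of a transcript shared a stretch of at least 75 bases at 97% identity or more with another gene for Phgdh (3 pseudogenes, up to 465 bases), Psph (Cct6a), Aars (Exosc6), Dnajb9 (Gm6568), Hsp90b1 (1810014B01Rik), Manf (Dcaf1 among 2 genes), Pycr1 (8 genes) and Slc3a2 (150 genes, up to 108 bases).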

How the data were processed

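RNA of 12 libraries, 3 in each of 4 groups taken from the labels, was measured by QuantSeq 3′ mRNA-seq, which reads the 3′ end of each transcript. The authors aligned single-end reads with Bowtie2 to mm10, tallied both unique and multi-mapped reads over each gene in Bedtools, and deposited the raw counts, whole numbers by gene symbol. The annotation is not given in the sources used here, and the quantile normalization named by the study is not part of the deposited counts. The 39 genes and all other lists were chosen with earlier results of these data known.

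Counts were tested with edgeR 4.0.16 in R 4.3.3 by the quasi-likelihood F test, with TMM factors, edgeR's default filter on low counts and 1 fit over all 12 libraries, and p-values were adjusted by Benjamini-Hochberg over 12425 genes. A call is an adjusted p under 0.05. The SE of a log2 value is its absolute size divided by the square root of the F statistic. Intervals of 95% are the log2 value ± this SE times the normal quantile. They are narrower than the F test implies, so an interval can leave out 0 where that test does not pass. For Cebpb with TGF-β1 in NC cells the interval was -0.80 to -0.02 at an unadjusted p of 0.0582 in the F test. Means of log2 CPM used a prior count of 2. The alternatives, 19 in all, used DESeq2 1.42.0, limma-trend (limma 3.58.1) after quantile normalization, upper-quartile factors, no filter, at least 10 counts in every library, the 6 compared libraries alone, a replicate block, or left out each library in turn. All 39 genes were accounted for, with values per library for those called in at least 1 comparison and for Atf4, Ddit3, Xbp1, Cebpb and Hspa5. At most 6 other pathway genes were named per comparison, by size of change among those called, without overlap and with mean log2 CPM of at least 3. Sec24d, Ostc and Hspb1 came through that rule. Farsb, Cars, Iars, Lars, Mars, Tars, Vars, Yars, Eif2ak3, Eif2ak4, Ppp1r15b and the genes named in the closing section were named after their values were seen.

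Promoter windows came from a RefSeq table. Libraries of the same group differed beyond counting noise (chi-square per degree of freedom of 4.29 to 59.0, the highest between NC_TGF replicates 2 and 3). Repeats of 1 culture can also differ in this way, so this cannot show separate cultures. Each library was counted as 1 sample. The labels do not say whether replicates were separate cultures, and p-values measure only the spread between these libraries. With 12809857 to 17714828 counts a library, 3 counts correspond to 0.169 to 0.234 CPM, and limits of this kind cover counting error only. The computation was tested on simulated counts.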

Additional observations from a re-analysis of the deposited data

How the results depend on the processing

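Of 2964 recomputed values of single genes among the 39, 2810 kept their side of the threshold, 108 lost a call and 46 gained one. Where a value was called in the main fit or the alternative, 0 changed direction. Some uncalled values near 0 did change sign, such as Psat1 with TGF-β1 in NC cells (log2 -0.08 to 0.04 over the alternatives). Upper-quartile factors moved the amino acid median for TGF-β1 to 0.87 in NC and 0.78 in siPdcd5 cells, and limma-trend on quantile-normalized values moved the NC median to 0.79, the silencing median with TGF-β1 to -0.25 and the amino acid calls there to 3. DESeq2 gave 5 chaperone calls for TGF-β1 in NC cells, 714 genes for silencing without and 459 with TGF-β1, 2 chaperone calls in the latter and 15 genes for the interaction. The 6 compared libraries alone gave 44 genes, 2 amino acid calls and 0 chaperone calls for silencing with TGF-β1. In each case the cause was not tested. For TGF-β1 in NC cells, deviations of same-numbered libraries correlated at 0.00742 to 0.166, against -0.167 to 0.0576 for other pairs. Elsewhere same-numbered pairs did not exceed the others: -0.0551 to 0.0342 (others -0.0748 to 0.0622) for TGF-β1 in siPdcd5 cells, and -0.0312 to 0.0796 (others -0.140 to 0.120) and -0.324 to -0.0364 (others -0.215 to 0.249) for silencing without and with TGF-β1. The main fit did not take the numbers as pairs. With the replicate block there were 22 amino acid calls for TGF-β1 in NC cells and 2 chaperone calls for silencing without TGF-β1. For silencing with TGF-β1 the block gave 107 genes and 3 amino acid calls. Leaving out 1 library gave medians of 0.89 to 0.93 (amino acid) and 0.24 to 0.40 (chaperone) for TGF-β1 in NC cells, and 0.72 to 0.85 (amino acid) in siPdcd5 cells. Chaperone calls were 3 to 5 and 4 to 9. For silencing without TGF-β1 it gave 167 to 667 genes, 4 to 10 amino acid calls, 0 to 7 chaperone calls and an amino acid median of -0.24 to -0.18. For silencing with TGF-β1 it gave 73 to 322 genes, 3 to 8 amino acid calls, 0 to 2 chaperone calls and medians of -0.35 to -0.23 and -0.33 to -0.22. For the interaction it gave 0 to 2 genes. Genes at a few CPM, Slc7a11 and Pycr1, had the widest errors.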

Other observations

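Other lists on protein folding outside the ER gave the values below, beside 8.57% and 8.50% of all genes called higher with TGF-β1 in NC and siPdcd5 cells, and 2.54% and 1.22% called lower by silencing without and with TGF-β1. Of 5 mitochondrial stress and folding genes, 2 rose with TGF-β1 in NC cells, Lonp1, a matrix protease (log2 0.42, SE 0.08, adjusted p = 0.00224), and Hspa9, the mitochondrial HSP70 (log2 0.41, SE 0.11, adjusted p = 0.0201). In siPdcd5 cells 3 rose, the chaperonin genes Hspd1 (log2 0.41, SE 0.09, adjusted p = 0.00579) and Hspe1 (log2 0.42, SE 0.10, adjusted p = 0.00883) and Hspa9 (log2 0.38, SE 0.11, adjusted p = 0.0316). In NC cells Hspd1 and Hspe1 were at 0.14 and 0.11 (adjusted p = 0.335 and 0.554), and their interaction terms were 0.26 and 0.31, both at an adjusted p of 0.951.

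Of 8 cytosolic heat shock genes tested (Hspa1a did not pass the filter), 3 rose with TGF-β1 in NC cells and 2 in siPdcd5 cells, with 0 lower. Hspb1, a small heat shock protein, rose in both (log2 0.67, SE 0.10, adjusted p = 3.6e-04, and log2 0.84, SE 0.11, adjusted p = 5.8e-05). It was also the 1 gene of this list that silencing lowered, from 108–125 to 68.7–76.4 CPM without TGF-β1 (log2 -0.67, SE 0.11, adjusted p = 0.00261) and from 154–202 to 126–135 CPM with it (log2 -0.50, SE 0.10, adjusted p = 0.0293).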
